A study of Mus musculus with 4 samples.

Results

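The mitochondrial ribosomal protein genes were followed here in brown-like adipocytes cultured from mice with and without a mutation in Lgr4, a receptor for R-spondins. Members were all genes on the array whose symbol was Mrpl or Mrps followed by digits and at most 1 letter, each read from its brightest probe set among those annotated to 1 gene only. The rule used no comparison between genotypes. It gave 76 genes of 18193 on the array, 47 Mrpl genes (large subunit by symbol) and 29 Mrps genes (small subunit by symbol), covered by 156 probe sets.

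The data were 4 Affymetrix expression arrays, 2 of wild-type and 2 of Lgr4 homozygous mutant cells. Both genotypes were stromal vascular fraction cells (the non-adipocyte cells of fat) from epididymal white fat of male mice aged 4 months. The cells were expanded with 10% serum and bFGF (10 ng/ml), a growth factor. All cultures had 48 h of induction with troglitazone (5 µM), T3 (50 nM), dexamethasone (1 µM), isobutylmethylxanthine (0.5 mM) and insulin (5 µg/ml), then 6 days with troglitazone, T3 and insulin only, so both genotypes carried the same inducers. The labels do not say what the Lgr4 allele is, in which cells of the mouse it acted, or whether the replicates, which they call biological, are different animals or different cultures, and the p-values cover the spread among these 4 samples alone, which may be technical. In RNA from whole cultures, fewer cells of a type and less RNA per cell cannot be told apart.

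Mitochondria carry their own ribosome, which translates the few subunits of respiratory complexes encoded in mitochondrial DNA. Its RNAs come from mitochondrial DNA, while all of its proteins are encoded in the nucleus, made in the cytosol and imported. Many of these proteins have bacterial relatives, and others are found only in mitochondrial ribosomes. Brown and beige adipocytes are rich in mitochondria, and the uncoupled respiration that makes heat in them depends on respiratory chain complexes assembled from both sets of subunits.

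Across the series, Lgr4 read 8.65 and 8.205 (log2 signal) in wild-type cells and 6.18 and 6.09 in mutant cells, a difference of -2.29 (SE 0.144, adjusted p 1.45e-05), or -1.10 when its probe sets were averaged. Differences are mutant minus wild-type on the log2 scale throughout, and adjusted p-values are from limma with Benjamini-Hochberg adjustment over the 13173 genes above a signal filter. All 13 adipocyte markers on the array rose (median 2.92), led by Adig (3.97), Cidec (3.96) and Gpd1 (3.74, or 1.89 averaged over probe sets), and their summed log2 signal was 126.7 to 126.9 in wild-type and 160.4 to 161.0 in mutant arrays. Of 17 macrophage markers 9 fell (median -0.33, Itgam -0.79), of 18 proliferation markers 12 fell (median -0.50, Rrm2 -1.04), and of 10 fibroblast and progenitor markers 8 fell (median -0.49, Thy1 -2.17). Of all genes tested 18.7% fell at an adjusted p under 0.05. These marker counts were lower without mutant array 1 or mutant array 2, and so was the number of all genes that fell. Summed log2 signals covered every marker on the array, with Tyms, which was below the filter, among the proliferation markers. With wild-type first, they were 209.0 to 210.2 against 203.2 to 203.9 for macrophage and 181.9 to 183.3 against 173.8 to 174.1 for proliferation markers. For fibroblast and progenitor markers they were 124.3 to 124.8 against 118.5 to 118.9. Of 8 endothelial markers 1 rose and 1 fell (12.5% each), against 11.1% and 18.7% of all genes tested. All adipocyte, macrophage, fibroblast and progenitor markers were above the filter, and 1 proliferation marker (Tyms) and 1 endothelial marker (Tie1) were below it. The part of these shifts in the results on the ribosomal proteins was not tested.

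Of the 76 members, 48 rose in the mutant at an adjusted p under 0.05 (63.2%), against 11.1% of all genes tested, and 0 fell, against 18.7% (29.8% changed in either direction). At an unadjusted p under 0.05, 52 were higher and 1 was lower, against 15.4% and 26.4% of all genes. All 76 were above the signal filter, with array values from 7.34 to 11.86, and no member depended on 1 genotype to pass it. The median difference was 0.37, which is 1.29-fold, with quartiles of 0.19 and 0.49, while the median over all genes tested was -0.03. Averaged over the members, the log2 signal was 9.97 and 10.02 in wild-type cells and 10.39 and 10.36 in mutant cells, which do not overlap.

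Most of these changes were small. Only 10 members rose by at least 1.5-fold and 3 by at least 2-fold, where 5.43% and 2.88% of all genes did. Both mutant arrays were above both wild-type arrays for 68 members, against 28.9% of all genes, and below them for 2, against 39.9%, while the arrays of 6 members overlapped. Leaving out 1 mutant array left the spread to be taken from the wild-type pair alone. Its replicates differed more, by a median of 0.0903 over members against 0.0468 in the mutant pair. Far fewer members then rose, and fewer of all genes did. The part of the mutant arrays in that loss cannot be told apart from the wild-type spread. All 48 kept a positive difference in each of the 12 alternative fits, and 13 of them passed in every one of those fits.

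**Figure D1:**
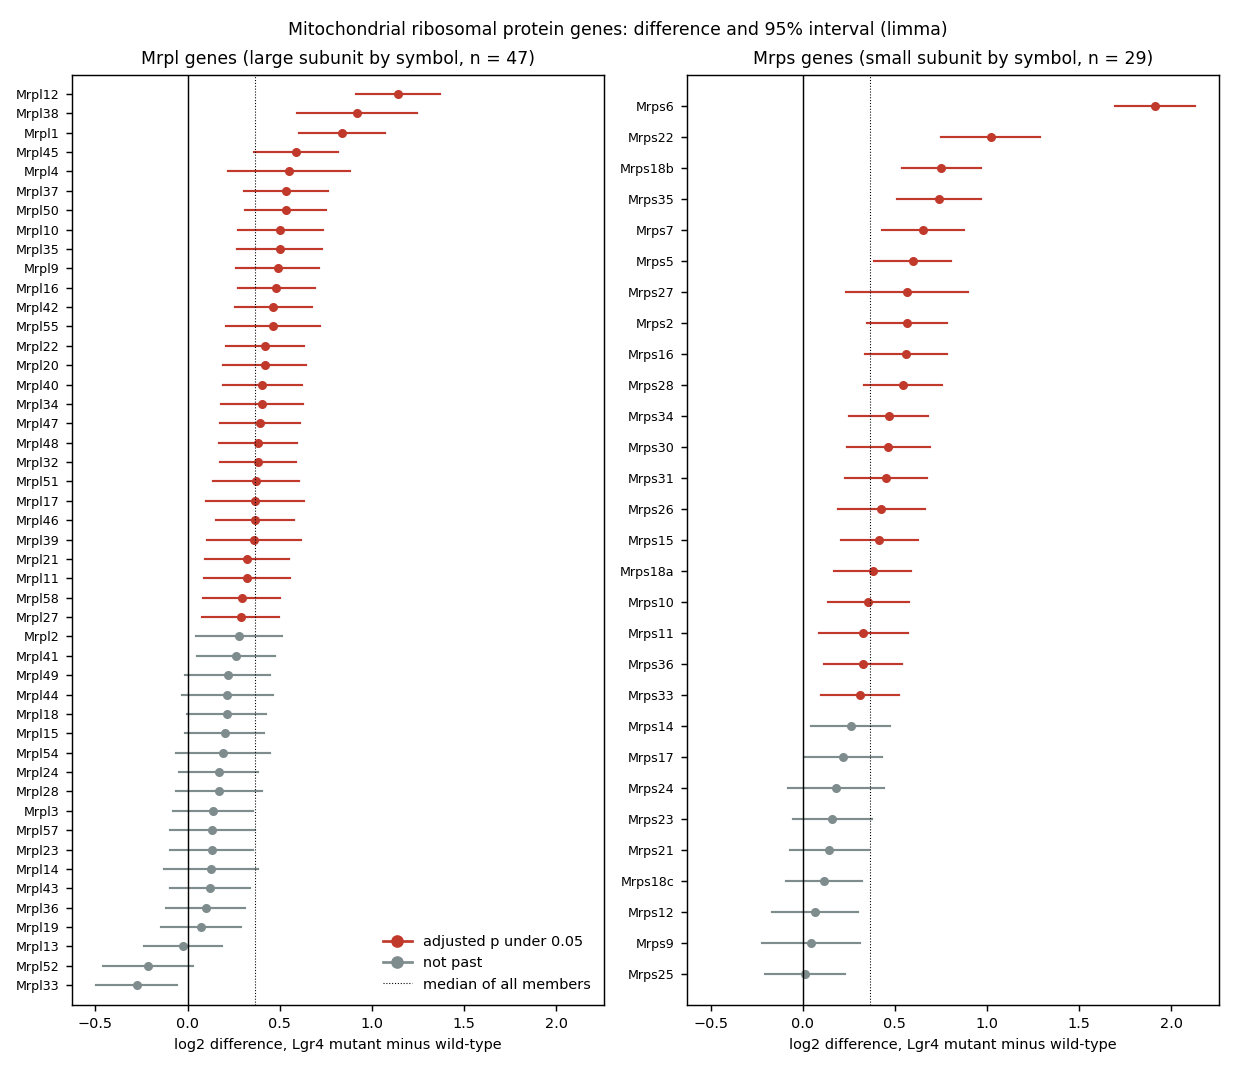
Log2 difference (mutant minus wild-type, x axis) of each of the 47 large and 29 small subunit genes with its 95% interval from limma, sorted by size. Red points passed an adjusted p of 0.05 and grey points did not, and the dotted line marks the median of all members (0.37). All red points lie to the right of 0, and Mrps6 stands alone at 1.91.

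The start regions of 6 members are shown so that the letters near the starts of members with high, middling and low differences can be set side by side. Sequences are RefSeq's (GRCm38.p6), from 250 bases before to 50 after the annotated start, and 67 of the 76 members had such a window. Capitals mark letters of 4 motifs searched on both strands, which were the ETS motif CCGGAAG, the core GCATGCG of the motif of nuclear respiratory factor NRF1, the core AAGATGG of the YY1 motif, and the letters AAGGTCA bound by estrogen-related receptors. The NRF1 core is nearly the same on both strands, so a match on one strand can overlap a match on the other. Mrps6 (chr16:92058086-92058385, forward strand), Mrpl12 (chr11:120484387-120484686, forward) and Mrps22 (chr9:98601630-98601929, reverse) are the members with the greatest differences. Mrps18b (chr17:35916391-35916690, reverse) holds NRF1 and ETS matches, Mrpl46 (chr7:78783040-78783339, reverse) shares its start region with another member, and Mrpl33 (chr5:31613701-31614000, forward) is the member with the lowest difference. The window of Mrpl12 holds only the receptor letters, that of Mrps22 an ETS match, that of Mrpl33 an NRF1 and an ETS match, and those of Mrps6 and Mrpl46 none of the 4.
Mrps6: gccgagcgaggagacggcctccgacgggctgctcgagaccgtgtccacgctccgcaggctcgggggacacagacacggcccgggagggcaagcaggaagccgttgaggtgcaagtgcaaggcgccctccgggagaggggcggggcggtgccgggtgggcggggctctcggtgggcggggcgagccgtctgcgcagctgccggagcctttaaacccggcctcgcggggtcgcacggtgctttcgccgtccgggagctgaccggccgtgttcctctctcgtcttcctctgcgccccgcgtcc
Mrpl12: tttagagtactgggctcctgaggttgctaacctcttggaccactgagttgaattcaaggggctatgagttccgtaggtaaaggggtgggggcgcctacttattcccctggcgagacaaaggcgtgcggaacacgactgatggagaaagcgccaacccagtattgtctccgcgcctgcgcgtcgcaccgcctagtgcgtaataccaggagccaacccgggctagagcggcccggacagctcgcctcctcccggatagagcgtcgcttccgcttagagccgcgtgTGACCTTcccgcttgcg
Mrps22: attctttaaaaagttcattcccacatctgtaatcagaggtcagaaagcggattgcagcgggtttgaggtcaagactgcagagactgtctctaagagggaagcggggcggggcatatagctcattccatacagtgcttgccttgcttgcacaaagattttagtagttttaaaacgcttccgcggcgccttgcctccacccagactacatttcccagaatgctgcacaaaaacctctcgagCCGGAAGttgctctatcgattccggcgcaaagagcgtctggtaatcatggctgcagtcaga
Mrps18b: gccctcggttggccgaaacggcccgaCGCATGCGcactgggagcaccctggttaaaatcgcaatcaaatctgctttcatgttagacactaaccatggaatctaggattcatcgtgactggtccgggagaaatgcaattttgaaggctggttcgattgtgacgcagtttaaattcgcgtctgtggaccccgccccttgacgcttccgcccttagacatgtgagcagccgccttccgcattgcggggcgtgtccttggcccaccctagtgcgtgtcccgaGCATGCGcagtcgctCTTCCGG
Mrpl46: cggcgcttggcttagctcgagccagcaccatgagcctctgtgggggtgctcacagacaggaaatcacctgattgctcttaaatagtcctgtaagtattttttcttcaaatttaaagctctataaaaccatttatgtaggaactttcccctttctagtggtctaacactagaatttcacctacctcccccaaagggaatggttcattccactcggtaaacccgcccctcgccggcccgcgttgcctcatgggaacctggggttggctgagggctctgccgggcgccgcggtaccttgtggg
Mrpl33: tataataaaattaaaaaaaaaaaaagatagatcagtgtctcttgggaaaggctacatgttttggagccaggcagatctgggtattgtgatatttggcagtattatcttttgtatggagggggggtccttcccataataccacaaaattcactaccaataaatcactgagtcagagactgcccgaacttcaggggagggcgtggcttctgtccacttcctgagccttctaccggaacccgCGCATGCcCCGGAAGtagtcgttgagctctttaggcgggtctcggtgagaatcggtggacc

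The ETS motif was in 25 of the 67 members (37.3%), against 18.5% of tested genes and 9.93% of all genes with a window. The YY1 core was in 13 (19.4%, against 8.05% of tested and 7.28% of all genes), the NRF1 core in 8 (11.9%, against 6.77% and 4.01%) and the receptor letters in 4 (5.97%, against 3.99% and 5.38%). Some match to the ETS, NRF1 or YY1 letters was in 37 members (55.2%), against 29.5% of tested genes. Risen members numbered 15 of 25 with the ETS motif and 28 of 42 without it, with median differences of 0.31 and 0.39. With the NRF1 core 7 of 8 rose, with a median of 0.40, and without it 36 of 59, with a median of 0.33. For the YY1 core the counts were 8 of 13 with it and 35 of 54 without it (medians 0.38 and 0.36). For the receptor letters they were 2 of 4 and 41 of 63 (medians 0.28 and 0.37). A match is a description of letters, and no match says only that they are not in this window.

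Mrps6, a small subunit protein related to bacterial S6, had the greatest difference of any member. Its log2 signal was 9.54 and 9.63 in wild-type cells and 11.53 and 11.47 in mutant cells. The genotypes were far apart and the replicates close. The difference was 1.91 (SE 0.0944, adjusted p 3.96e-06), or 3.77-fold with a 95% interval of 3.24 to 4.38, and it ranked 126 among the differences of the 13173 genes. A second probe set for Mrps6 gave 8.75, 8.97, 10.99 and 10.95 in the same order, a difference of 2.11, so both probe sets separated the genotypes. In RefSeq the Mrps6 gene overlaps Slc5a3, which encodes a myo-inositol transporter. Slc5a3 read 8.58 and 8.38 in wild-type cells against 11.09 and 11.13 in mutant cells, a difference of 2.63 (SE 0.104, adjusted p 1.23e-06), or 1.53 when its probe sets were averaged. Where the probes of either gene lie relative to the overlap was not tested.

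Among large subunit members Mrpl12, a protein of the stalk that recruits translation factors and that also binds the mitochondrial RNA polymerase, differed most. It read 9.77 and 9.87 in wild-type cells against 11.02 and 10.90 in mutant cells. The pairs were separated by about 1 log2 unit, and the difference was 1.14 (SE 0.099, adjusted p 9.5e-05), or 2.21-fold. Mrpl1, the protein of the mobile L1 stalk by which spent tRNA leaves, read 7.52 and 7.34 against 8.29 and 8.26, a difference of 0.84 (adjusted p 0.000603). Mrpl38, a mitochondria-specific protein of the central protuberance, read 8.13 and 8.57 against 9.25 and 9.29, a difference of 0.92 (SE 0.141, adjusted p 0.00209). Its wild-type arrays were far apart but both lay below the mutant arrays. Mrpl45, which lies at the exit of the peptide tunnel and ties the ribosome to the inner membrane, read 10.02 and 10.14 against 10.73 and 10.62, a difference of 0.59 (adjusted p 0.00332).

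Of these 4, Mrpl1 and Mrpl38 differed between probe sets. The second probe set of Mrpl1 read 7.85 and 7.58 in wild-type cells against 7.66 and 7.69 in mutant cells, a difference of -0.04, and its genotypes overlapped. The other probe sets of Mrpl38 above the filter differed by 0.08 and -0.05. Averaging the probe sets of a gene gave 0.26 for Mrpl1, with an adjusted p of 0.0626 that no longer passed, and 0.32 for Mrpl38, with an adjusted p of 0.0494.

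Among the small subunit members, Mrps22, a mitochondria-specific protein in which human variants cause combined respiratory chain deficiency, read 9.42 and 9.21 in wild-type cells against 10.44 and 10.23 in mutant cells. The genotypes were well apart, with a difference of 1.02 (SE 0.117, adjusted p 0.000451), or 2.03-fold. Mrps35, another mitochondria-specific protein, read 9.14 and 9.18 against 9.98 and 9.82, a difference of 0.74 (adjusted p 0.00107). Mrps7, a protein of the head of the subunit, read 9.83 and 9.91 against 10.58 and 10.47, a difference of 0.65 (adjusted p 0.00173). The genotypes did not overlap for either gene. Mrps7 overlaps Mif4gd in RefSeq, which rose as well, by 0.62 (adjusted p 0.00298), and Gga3, which did not pass (-0.08, adjusted p 0.602). In RefSeq 19 members overlap another coding gene, and most of the tested overlapping genes did not pass. Apart from Gga3, only those that passed are named here as overlapping. Mrps5, which lines the path by which mRNA enters, read 8.23 and 8.26 against 8.82 and 8.86, a difference of 0.60 (adjusted p 0.00213). Of its 4 other probe sets above the filter, 2 rose (0.61 and 0.38) and the remaining pair gave 0.07 each, and its average over probe sets was 0.35 (adjusted p 0.0224). Mrps16, a protein of bacterial ancestry in which human variants cause fatal infant disease, read 11.06 and 11.19 against 11.72 and 11.66, a difference of 0.56 (adjusted p 0.00378).

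**Figure D2:**
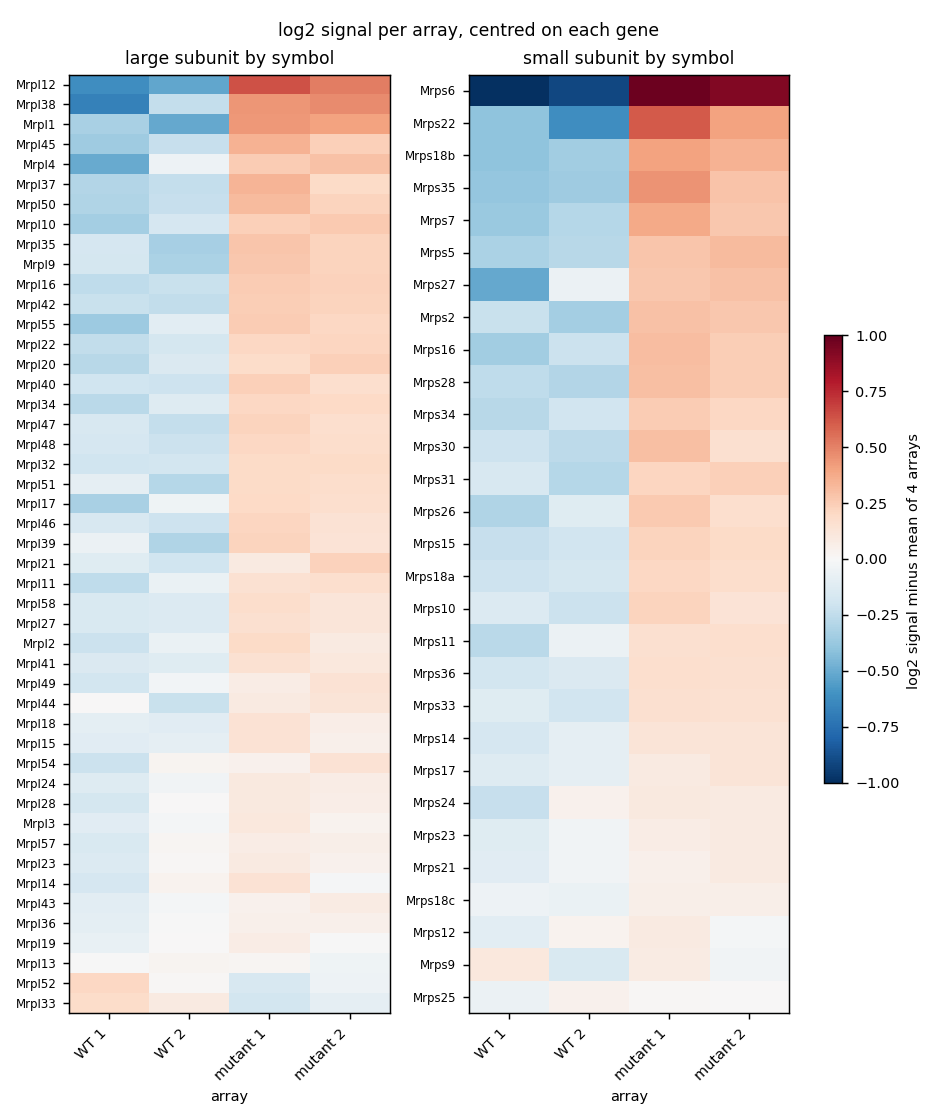
Log2 signal of each member on each array after subtracting its own mean over the 4 arrays (colour scale from -1 to 1), large subunit on the left and small subunit on the right, sorted by difference. Columns are the individual wild-type (WT) and mutant arrays. The mutant columns are red for nearly all genes, with Mrpl52 and Mrpl33 at the bottom of the left panel the other way.

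The 3 relatives of bacterial S18 gave different calls. Mrps18b rose, with 9.48 and 9.54 in wild-type cells against 10.29 and 10.23 in mutant cells, a difference of 0.75 (SE 0.093, adjusted p 0.000681). Mrps18a also rose, from 9.85 and 9.89 to 10.27 and 10.23, a difference of 0.38 (adjusted p 0.0161). Mrps18c read 11.28 and 11.26 against 11.39 and 11.38, a difference of 0.12 that did not pass (adjusted p 0.37, 95% interval -0.09 to 0.32). The mutant arrays were above the wild-type arrays for all 3 genes, and for 28.9% of all genes. The intervals of Mrps18b (0.54 to 0.97) and Mrps18c do not overlap, and a test of the difference between them was not run. Mrps18a overlaps Rsph9 in RefSeq, which fell by 0.48 (adjusted p 0.00625), a call lost without mutant array 1 (adjusted p 0.089).

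Some symbols do not match the place of the protein in the solved structures. Mrps30 and Mrps18a lie in the large subunit, and Mrps36 is now known as an adaptor of the oxoglutarate dehydrogenase complex. Mrps30 read 10.00 and 9.95 in wild-type cells against 10.51 and 10.36 in mutant cells, a difference of 0.46 (adjusted p 0.00927), and Mrps36 read 9.97 and 10.01 against 10.32 and 10.31, a difference of 0.33 (adjusted p 0.0285). The genotypes were apart for both genes. Without mutant array 1 the adjusted p was 0.144 for Mrps30, 0.184 for Mrps18a and 0.25 for Mrps36, and without mutant array 2 the calls of Mrps18a (adjusted p 0.132) and Mrps36 (adjusted p 0.221) were also lost.

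By symbol, 28 of 47 large subunit members (59.6%) and 20 of 29 small subunit members (69.0%) rose, against 11.1% of all genes tested. In either subunit 0 fell, against 18.7% of all genes. The median differences were 0.36 and 0.41. On the single arrays the large subunit members averaged 10.04 and 10.10 in wild-type cells against 10.42 and 10.39 in mutant cells, and the small subunit members 9.86 and 9.90 against 10.35 and 10.31. Both subunits were higher on both mutant arrays than on either wild-type array, and the mean difference was greater by 0.12 in the small subunit, or by 0.06 when Mrps6 was left out. Fewer members of both subunits rose without mutant array 1 or mutant array 2, and fewer of all genes did. Placing members by structure gave 30 of 49 large and 17 of 26 small subunit proteins, with medians of 0.37 and 0.42.

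By family, 26 of 45 members of families counted as shared with bacteria rose (median 0.33), as did 21 of 30 counted as mitochondria-specific (median 0.38). Of all genes tested 11.1% rose. Mrps18a and Mrps18b were counted as mitochondria-specific in spite of their relation to bacterial S18, and Mrps36 was in neither group. Within the small subunit by structure, 8 of 10 mitochondria-specific proteins rose (median 0.46) and 9 of 16 shared ones (median 0.34). Within the large subunit, 13 of 20 mitochondria-specific proteins rose (median 0.37) and 17 of 29 shared ones (median 0.32). No test of these differences between groups of members was run.

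Of the 28 members that did not pass, 25 had a difference above 0, against 45.3% of all genes tested. Both mutant arrays lay above both wild-type arrays for 20, against 28.9% of all genes. Those shares of all genes include genes that passed, unlike these 28 members. The intervals of the 28 members reached at most 0.51, and the boundary fell between Mrpl27, at 0.29 (adjusted p 0.0454), and Mrpl2, at 0.28 (adjusted p 0.0698). Mrps12, which lies at the decoding site and affects its accuracy, read 10.12 and 10.27 in wild-type cells against 10.32 and 10.21 in mutant cells, a difference of 0.07 (adjusted p 0.644). Its genotypes overlapped, and the 95% interval ran from -0.16 to 0.30. Mrpl3, in which human variants cause cardiomyopathy, read 10.51 and 10.60 against 10.73 and 10.65, a difference of 0.14 (adjusted p 0.308, interval -0.08 to 0.36).

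Mrpl33 and Mrpl52 were the only members with both mutant arrays below both wild-type arrays, and they are named here because of their values. Mrpl33, related to bacterial L33, read 10.62 and 10.53 in wild-type cells against 10.25 and 10.35 in mutant cells, a difference of -0.28 (SE 0.0961, adjusted p 0.0626). Mrpl52, a mitochondria-specific protein, read 11.02 and 10.83 against 10.65 and 10.76, a difference of -0.22 (adjusted p 0.161). Neither passed. Without wild-type array 2 both passed as lower (Mrpl33 -0.32, adjusted p 0.0179, and Mrpl52 -0.31, adjusted p 0.0221). Averaged over probe sets the differences were -0.0729 for Mrpl33 (adjusted p 0.552) and -0.0579 for Mrpl52 (adjusted p 0.647).

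Mrpl44, a protein with a ribonuclease III fold in which human variants cause cardiomyopathy, read 10.19 and 9.96 in wild-type cells against 10.27 and 10.31 in mutant cells on its brightest probe set. That difference of 0.22 did not pass (adjusted p 0.163). Of its 3 other probe sets, 2 rose when every probe set above the filter was tested, by 0.45 (adjusted p 0.0213) and 0.54 (adjusted p 0.00829), and the remaining one gave 0.27. Mrpl15, Mrpl49 and Mrps23 likewise did not pass on the brightest probe set but rose on another, by 0.42, 0.47 and 0.46. Mrpl44 overlaps Wdfy1 in RefSeq, which fell by 0.42 with both mutant arrays and not without mutant array 1 (adjusted p 0.0847) or mutant array 2 (adjusted p 0.153).

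Over the whole set, 34 members had a further 59 probe sets above the filter. Of these 59, 12 rose and 0 fell, where 8.81% of all 23023 probe sets above the filter rose, and 49 had the sign of the brightest probe set. Their median difference was 0.16, and the median gap to the brightest probe set was 0.18. Among 19 risen members with a further probe set, 5 had a further one that rose (Mrpl9, Mrpl39, Mrps2, Mrps5 and Mrps6), and among 15 members that had not passed, 4 did. No member had probe sets that rose and fell. For Mrpl9 all 3 probe sets rose, by 0.49, 0.47 and 0.39.

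**Figure D3:**
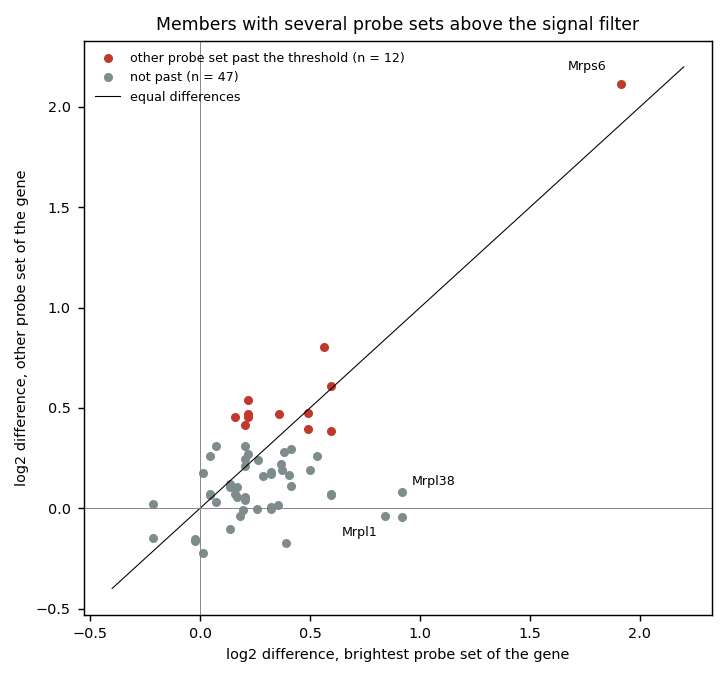
Log2 difference of each further probe set of a member (y axis) against that of the brightest probe set of the same gene (x axis), mutant minus wild-type. Points are the 59 further probe sets above the filter of 34 members, and red ones passed an adjusted p of 0.05 with every probe set tested. Most points lie below the line of equal differences, Mrps6 lies near it, and those of Mrpl1 and Mrpl38 lie near 0.

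In the mouse genome many of these genes start back to back with a neighbour. By RefSeq, 25 of the 67 members with a window (37.3%) have a gene that starts within 1000 bases on the other strand, pointing away, against 18.6% of tested genes. Mrpl46 and Mrps11, whose starts are 42 bases apart, are both members, and both rose. Mrpl46 read 9.51 and 9.46 in wild-type cells against 9.89 and 9.82 in mutant cells (difference 0.37, adjusted p 0.0199), and Mrps11 read 8.56 and 8.77 against 8.99 and 8.997 (difference 0.33, adjusted p 0.0455). The genotypes were apart for both genes, and both calls were lost without mutant array 1 (adjusted p 0.233 for Mrpl46 and 0.239 for Mrps11) or mutant array 2 (0.126 and 0.247). That of Mrps11 was also lost without wild-type array 1 (adjusted p 0.0706).

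Few of the other neighbours passed. Of 21 tested neighbours that are no members, 2 rose (9.52%, against 11.1% of all genes) and 0 fell, with a median difference of 0.000345 and a range of -0.16 to 0.74. The members beside them had a median of 0.37, with 13 of them risen, and the member's difference was above its neighbour's in 19 of the 21 pairs. In 11 pairs the member rose and the neighbour did not pass. Mrps18b (0.75) stands beside Ppp1r10 (0.10), a phosphatase subunit, Mrps7 (0.65) beside Gga3 (-0.08), an adaptor of vesicle transport, and Mrpl32 (0.38) beside Psma2 (-0.01), a proteasome subunit. Ppp1r10 read only 6.27 to 6.56, near the signal filter of 6.13, where differences are compressed. The neighbours Zfp189, Sars2, 2610507I01Rik and 4930473A02Rik were also near it (6.14 to 6.76). Gga3 (8.62 to 8.82) and Psma2 (12.58 to 12.63) were well above it. The neighbours that rose were Ndufb5, a complex I subunit beside Mrpl47 (0.74, adjusted p 0.000822), and Ptcd2, a mitochondrial RNA-binding protein beside Mrps27 (0.43, adjusted p 0.0109). The call of Ptcd2 was lost without mutant array 1 (adjusted p 0.166) or mutant array 2 (adjusted p 0.0522). Members with and without such a neighbour rose in 16 of 25 and 27 of 42 cases, with medians of 0.37 and 0.36.

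**Figure D4:**
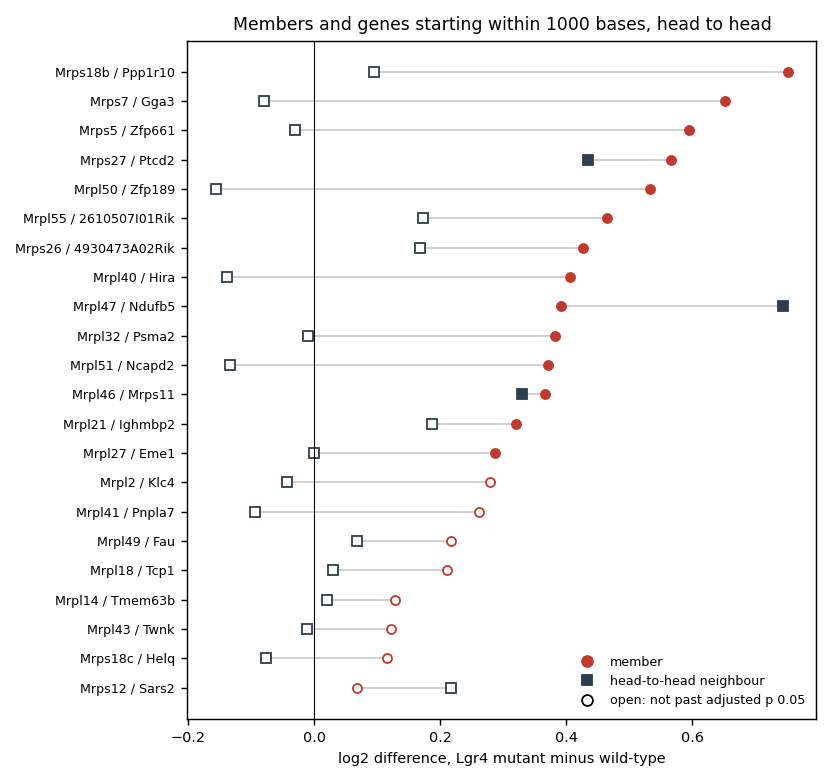
Log2 difference (mutant minus wild-type) of each member (circles) and of the gene that starts within 1000 bases of it on the other strand (squares), a line joining each pair. Filled symbols passed an adjusted p of 0.05. Squares lie near 0 for most pairs, with Ndufb5, Ptcd2 and Mrps11 filled.

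Proteins of the same ribosome that carry other symbols were read from a list of 4. Ptcd3, a small subunit protein with RNA-binding repeats, read 9.44 and 9.31 in wild-type cells against 10.19 and 10.13 in mutant cells, a difference of 0.79 (adjusted p 0.000686), or 0.38 averaged over probe sets (adjusted p 0.0134). Dap3, a GTP-binding small subunit protein, read 10.61 and 10.58 against 10.92 and 10.87, a difference of 0.30 (adjusted p 0.0412) that no longer passed without mutant array 1 (adjusted p 0.347) or mutant array 2 (adjusted p 0.234). Gadd45gip1, of the large subunit, differed by 0.38 and Chchd1, of the small subunit, by 0.03, and neither passed. The difference of Gadd45gip1 was 0.61 without wild-type array 2 (adjusted p 0.000693) and 0.14 without wild-type array 1 (adjusted p 0.242), and with the replicate block its adjusted p was 0.0052. Both mutant arrays were above both wild-type arrays for all 4, Chchd1 with its small difference among them, and for 28.9% of all genes.

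Of 10 mitochondrial translation factors 5 rose and 1 fell (median 0.28), against 11.1% and 18.7% of all genes tested. Tufm, which brings charged tRNA to the ribosome, rose by 0.81 (adjusted p 0.00179), or 0.41 averaged over probe sets. Gfm1, the translocation factor, rose by 0.55 (adjusted p 0.0113), and Gfm2, which recycles ribosomes, by 0.54 (adjusted p 0.00503), or 0.33 averaged. Mtrf1l, a release factor, fell by 0.40 (adjusted p 0.0332), a call lost without wild-type array 1 (-0.26, adjusted p 0.0511), mutant array 1 (adjusted p 0.104) or mutant array 2 (adjusted p 0.209). The call of Gfm2 was lost without mutant array 1 (adjusted p 0.0792). Fewer factors rose without mutant array 1 or mutant array 2, and fewer of all genes did.

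Of 24 assembly factors of the mitochondrial ribosome 5 rose (20.8%) and 0 fell (median 0.08), against 11.1% and 18.7% of all genes tested. Eral1, a chaperone of the small subunit RNA, rose by 0.58 (adjusted p 0.00461). Ddx28, a helicase of large subunit assembly, rose by 0.40 (adjusted p 0.0189), and Mtg1, a GTPase of the same pathway, by 0.35 (adjusted p 0.0277). The calls of Ddx28 and Mtg1 were lost without either mutant array. Fewer assembly factors rose in those fits and more rose without wild-type array 2, and the same held for all genes. At an unadjusted p under 0.05, 9 assembly factors were higher and 2 lower, against 15.4% and 26.4% of all genes.

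Of 15 mitochondrial aminoacyl-tRNA synthetases 5 rose (33.3%) and 0 fell (median 0.22), against 11.1% and 18.7% of all genes tested. Fars2, Tars2 and Iars2, which charge tRNA with phenylalanine, threonine and isoleucine, rose by 0.53, 0.43 and 0.39. Fewer synthetases rose without mutant array 1 or mutant array 2 and more rose without wild-type array 2, and the same held for all genes. Averaged over probe sets Fars2 differed by 0.29 (adjusted p 0.0436).

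Of 14 genes for transcription of mitochondrial DNA and handling of its transcripts 7 rose and 0 fell (median 0.34). Of all genes tested 11.1% rose and 18.7% fell. Letm1, an inner membrane protein known for cation exchange and not for transcription, was also in the list and rose by 0.87 (adjusted p 0.000362), or 0.35 averaged over probe sets. Tefm, the elongation factor of mitochondrial transcription, rose by 0.53 (adjusted p 0.0184), and Hsd17b10, a subunit of mitochondrial RNase P, by 0.49 (adjusted p 0.005). Tfam, which packages mitochondrial DNA, differed by -0.05 and Polrmt, the mitochondrial RNA polymerase, by 0.24, and neither passed (adjusted p 0.727 and 0.0836). Without mutant array 1 both Tefm and Hsd17b10 lost their calls and Letm1 kept its own. Fewer genes of the list rose without either mutant array, and fewer of all genes did.

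The cytosolic ribosome and the respiratory chain, which the mitochondrial ribosome serves, were read beside these lists. Of 44 cytosolic ribosomal proteins above the filter 0 rose and 1 fell (median -0.00), against 11.1% and 18.7% of all genes tested. At an unadjusted p under 0.05 there were 0 higher and 2 lower, against 15.4% and 26.4% of all genes. The one that fell was Rps25, by 0.39 (adjusted p 0.0137), a call lost without mutant array 1 (adjusted p 0.148) or mutant array 2 (adjusted p 0.128). Of 72 nuclear genes for respiratory chain complexes, ATP synthase and cytochrome c, 62 rose (86.1%) and 0 fell (median 0.54). Cycs, which is cytochrome c, rose by 1.497, Cyc1 by 1.24 and Uqcrfs1 by 1.12, the latter pair subunits of complex III. Fewer of the 72 rose without mutant array 1 or mutant array 2, and fewer of all genes did. The median of the mitochondrial ribosomal proteins (0.37) lay between those of these lists, and no test of the difference between lists was run. Genes encoded in mitochondrial DNA were not analysed here.

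**Figure D5:**
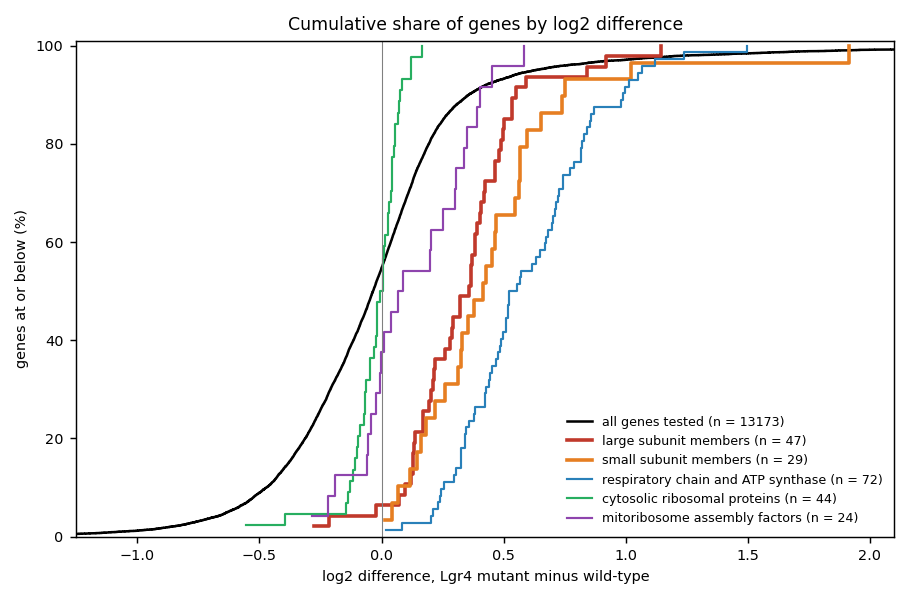
Cumulative share of genes (y axis, percent) by log2 difference, mutant minus wild-type (x axis, cropped at both ends), for all 13173 genes tested, the large and small subunit members and 3 related lists. Over most of the range the curves of both subunits lie to the right of all genes and to the left of the respiratory chain. They also lie to the right of the cytosolic ribosomal proteins, whose curve is steep near 0. Curves cross at the upper end, where Mrps6 (1.91) lies beyond the highest respiratory chain gene (1.497) and some of all genes lie beyond both.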

How the data were processed

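Per the labels, total RNA (500 ng) was extracted with Trizol, labelled with an Affymetrix 3' kit and hybridised. The values deposited by the authors are on a log2 scale, 1 per probe set, made with Partek 6.6 and RMA per the submitters' processing notes. RMA subtracts background and equalises the arrays' distributions, so a change in total RNA cannot be seen, and differences near background are compressed. The sources used here do not give the variant of RMA. Of 45101 probe sets, 64 were controls, and 34945 named 1 gene in the platform annotation, 932 several and 9160 none. The brightest probe set of each gene was used if its mean exceeded 6.13, the 40th percentile of probe sets other than controls.

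The comparison of genotypes used lmFit and eBayes of limma 3.58.1 (R 4.3.3), 2-sided, with 6.21 prior degrees of freedom and a threshold of 0.05. Precision is limited by the number of arrays. The median absolute difference between replicates of members was 0.0903 in wild-type and 0.0468 in mutant arrays. Named were the 10 risen members with the largest differences (the rule also took the 10 largest falls, of which there were 0), members whose symbol and place in the structure differ with their paralogs, 6 members with a known role or disease link, every gene of the list of other mitoribosomal proteins, up to 3 risen and 3 fallen genes of each further list (the lead genes only for cell markers), and Lgr4. Other genes were named after their values were seen, as overlapping or neighbouring genes or at the ends of a range. Members and lists were chosen with earlier results of these data known. Members matched RefSeq (GRCm38.p6) in 76 of 76 cases. Probe sets that name several genes were not used here. Alternatives were the filter, the treatment of probe sets, 2 further normalizations, an intensity trend, a replicate block, leaving out each array, and subunits by structure.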

Additional observations from a re-analysis of the deposited data

How the results depend on the processing

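The median differences of all, large subunit and small subunit members were 0.28, 0.26 and 0.32 with probe sets averaged, 0.33, 0.33 and 0.38 with arrays centred on their medians, and 0.42, 0.40 and 0.50 after a second quantile normalization. Leaving out an array gave 15 to 55 risen members (large subunit 5 to 32, small subunit 10 to 23), 0 to 2 fallen ones (large subunit 0 to 2) and a small subunit median of 0.36 to 0.43. With 1 array left in a genotype, that array is assumed to vary like the others. Fallen members numbered 1, and 1 in the large subunit (Mrpl33), with median centring, an intensity trend or the replicate block. Signs turned, with no call, for Mrps25 with averaging (-0.0111) and centring (-0.0209), and when an array was left out, with ranges of -0.00485 to 0.142 for Mrps12, -0.0869 to 0.176 for Mrps9, -0.0394 to 0.0641 for Mrps25 and -0.0508 to 0.0053 for Mrpl13. The cause was not tested. Other counts of risen members stayed between 37 (averaged probe sets) and 50. The arrays share replicate numbers, but deviations of same-numbered arrays correlated at 0.16 over only 2 numbers, which does not make them pairs. With the number as a block 49 members rose and 1 fell, and the members with a new call were Mrpl2 and Mrpl33. Of the 48 risen members, 35 lost the call in at least 1 of 12 fits. Of the other 28, 11 passed in at least 1. With 2 arrays a genotype, differences under about 0.28 did not pass.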
